A study of Mus musculus with 16 samples.

Results

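Nuclear genes for the subunits of the respiratory chain and of ATP synthase were compared between secretory-lineage and other epithelial cells of the mouse small intestine. Members were chosen by symbol: protein-coding genes whose name begins with Nduf followed by a, b, c, s or v and a digit, Sdha to Sdhd, genes that begin with Uqcr, *Cyc1*, genes that begin with Cox4 to Cox8, and genes that begin with Atp5. This gave 85 members among the 45513 genes of the count files, 37 named for complex I, 4 for complex II, 9 for complex III, 18 for complex IV and 17 for complex V. Another 10 genes matched by name but were not protein coding and were left out. The names are not a perfect guide. *Ndufa4* is named for complex I although its protein is known as a subunit of complex IV, and *Atp5s* encodes a factor related to ATP synthase that is not part of the enzyme.

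In the inner mitochondrial membrane, complex I (NADH dehydrogenase) and complex II (succinate dehydrogenase) pass electrons to ubiquinone, complex III hands them to cytochrome c, and complex IV (cytochrome c oxidase) reduces oxygen with them. Complexes I, III and IV pump protons, and complex V (ATP synthase) uses the gradient to make ATP. Most subunits are encoded in the nucleus and a few, at the cores of complexes I, III, IV and V, in mitochondrial DNA, while complex II is wholly nuclear. In the small intestine the absorptive enterocytes are rich in mitochondria. Goblet and Paneth cells are secretory cells that make mucus and antimicrobial proteins.

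All samples came from *Atoh1*(WT)CreERT2 R26RtdTom mice, in which a tamoxifen-activated Cre recombinase is expressed from the locus of *Atoh1*, a transcription factor of secretory progenitors, and turns on the red reporter tdTom in these cells and their progeny. Live EpCAM+ epithelial cells from each of 8 mice were sorted into a tdTom+ and a tdTom− fraction, giving 8 libraries of each and 1 of each per mouse. Both groups therefore shared genotype, strain and treatment: the methods of the study give mice homozygous for the Cre allele and heterozygous for the reporter, of both sexes, C57BL/6, aged 8 to 16 weeks, with cells from the proximal 15 cm of the small intestine after the villus-enriched fraction was discarded. The labels give 1 mg of tamoxifen per day for 3 days. The methods give the same schedule for the mice that defined the secretory signature, which came from comparing these fractions. The sequencing section of the methods gives 3 mg injected 24 h before collection and names tdTom+ cells only. Both libraries of a mouse are marked by the same number in the labels.

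Libraries held 17116405 to 25323567 assigned counts, so that 3 counts corresponded to at most 0.175 CPM (counts scaled to a common library size). The fractions were checked against 8 marker genes per cell type. All 8 goblet and all 8 Paneth markers were higher in tdTom+ cells, with median log2 fold changes of 7.31 and 7.47. All 8 absorptive markers were lower, with log2 fold changes of -3.59 to -2.38, and together they reached 1563 to 6021 CPM in tdTom+ against 14550 to 38346 CPM in tdTom− libraries. Of the 8 enteroendocrine markers 8 were higher, as were 6 of the 7 tuft markers tested, 2 of 8 stem cell markers and 1 of 3 stromal markers tested, while 3 of 7 immune markers tested were lower (summed level 5.62 to 27.3 against 10.1 to 139 CPM) and none of 8 proliferation markers passed the test in either direction. With the mouse as a replicate block 5 of 7 immune markers were lower, and 7 of 7 tuft and 3 of 8 stem cell markers were higher. Of the 15323 genes tested, 4600 were lower and 3956 higher with this block. The tdTom− library of mouse 7 held less absorptive marker RNA than any other of its group, and its immune level of 125 CPM was near the top of the range. Results that depend on this mouse are given with and without it.

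Nuclear subunit transcripts were lower in tdTom+ cells throughout the 5 complexes. Of the 85 members, 79 had enough counts to be tested, and 77 of these were lower and 0 higher at an adjusted p under 0.01 (quasi-likelihood test of edgeR, Benjamini-Hochberg over 15323 genes). Among all genes tested 27.0% were lower and 22.7% higher by the same rule, 49.6% in all. The median log2 fold change of the tested members was -0.86, a level 1.81-fold lower, while the median over all genes was 0.01. In each of the 8 mice the median member was lower in tdTom+ cells, by a log2 difference of -1.11 to -0.64. Summed over the 85 members, they came to 17198 ± 596 CPM in tdTom− against 9137 ± 1037 CPM in tdTom+ (mean ± SD, n = 8 each), and no tdTom+ library reached the lowest tdTom− library. As a share of all counts this was 1.76% ± 0.11 and 0.90% ± 0.16. In sorted cell pools, fewer cells of a type rich in these transcripts and less of the transcript per cell cannot be told apart. The absorptive markers were also lower in the tdTom+ library of every mouse. Mouse 7 had the lowest summed absorptive markers of each fraction, 14550 CPM in tdTom− (group median 32680) and 1563 CPM in tdTom+ (group median 3595). Its summed members lay within the range of the other mice, at 17345 CPM in tdTom− (others 16411 to 18046) and 8757 CPM in tdTom+ (others 7849 to 10691). The part of absorptive cells in this result was not tested.

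**Figure D1:**
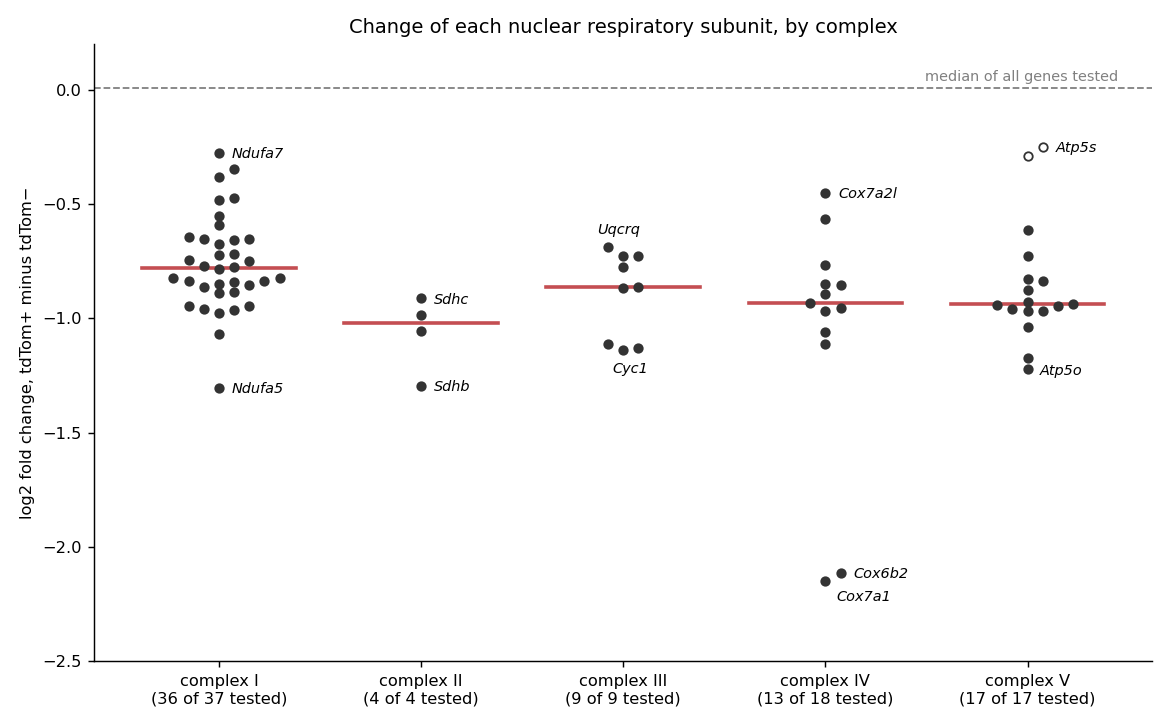
Each point is a tested member, placed by its log2 fold change (tdTom+ minus tdTom−) under the complex it is named for; red lines are medians, open points did not pass the adjusted p of 0.01, and the dashed line is the median of all genes tested. All 79 points lie below the dashed line, *Cox7a1* (-2.15) and *Cox6b2* (-2.11) lie apart from the others, and both open points are in complex V.

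The groups did not overlap for 74 of the 79 tested members, whose 8 tdTom+ libraries were all below the 8 tdTom− libraries. This held for 17.0% of all genes tested. In 76 members, compared with 27.4% of all genes, the tdTom+ library was the lower one in all 8 mice. The members with overlapping groups were *Ndufs4*, *Ndufa7*, *Cox6b2*, *Atp5g2* and *Atp5s*. The change was moderate in size, as 14 of the 79 members fell by at least 2-fold, compared with 11.3% of all genes. The members with the largest decreases were *Cox7a1*, *Cox6b2*, *Ndufa5*, *Sdhb* and *Atp5o*, and those with the smallest were *Atp5s*, *Ndufa7*, *Atp5g2*, *Ndufs4* and *Ndufb11*. Per kilobase of annotated exon, the most abundant members in tdTom− cells were *Cox6b1* (595 CPM per kb), *Atp5a1* (561) and *Cox8a* (536). Levels per kilobase depend on the exon length annotated for each gene, and by CPM alone *Atp5b* was highest (mean 2131 CPM). The order of the 79 members by level per kilobase was much the same in both fractions (Spearman's rho 0.97 across genes, which share libraries and gene models and are not independent replicates).

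**Figure D2:**
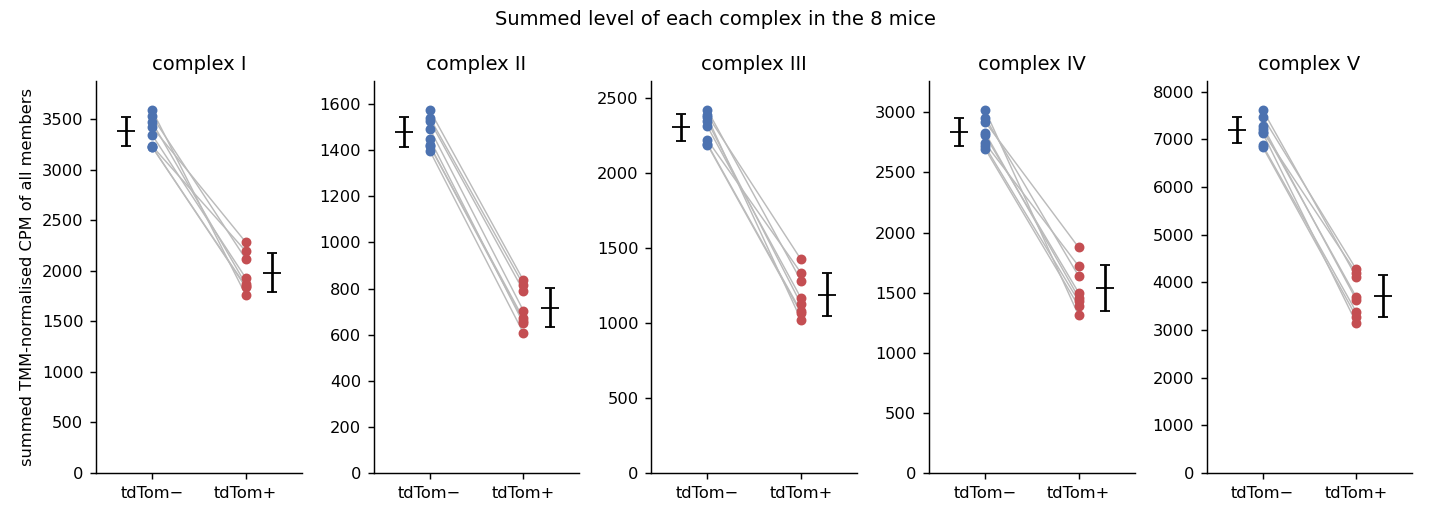
Points are the summed TMM-normalised CPM (scaled by trimmed mean of M-values) of all members named for a complex in each library, with grey lines joining the fractions of a mouse and bars showing the mean ± SD of 8 libraries. In each complex all 8 tdTom+ libraries lie below all 8 tdTom− libraries.

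Complex I was represented by 36 tested members, all of them lower, with a median log2 fold change of -0.78 and a range of -1.30 to -0.28. Summed, they came to 3382 ± 144 CPM in tdTom− against 1982 ± 192 CPM in tdTom+ (mean ± SD, n = 8 each). The core subunits carry the cofactors and the ubiquinone site, and the accessory subunits surround them. *Ndufv1*, which binds NADH and flavin, fell by 0.96 on the log2 scale (SE 0.07), from 202 ± 9.45 to 104 ± 11.7 CPM. *Ndufs1*, the largest iron-sulphur subunit, fell by 0.96 (SE 0.06), and its partner in the same arm *Ndufv2* by 0.77 (SE 0.08). *Ndufs7*, which lines the ubiquinone site, fell by 0.82 (SE 0.06), and *Ndufs3* by 0.84 (SE 0.06). *Ndufs8*, an iron-sulphur protein next to that site, was at -0.48 (SE 0.08).

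The accessory subunit *Ndufa5* (chromosome 6, 24518666 to 24528013, GRCm38) had the largest decrease of complex I. It ranged from 52.9 to 67.5 CPM (median 60.5) in tdTom− and from 20.3 to 29.6 CPM (median 23.5) in tdTom+ libraries. The groups were well apart, and the level was 2.47-fold lower (log2 fold change -1.30, SE 0.08, adjusted p = 2.51e-10 by edgeR). *Ndufa7* (chromosome 17, 33824591 to 33838316) had the smallest. It ranged from 45.2 to 59.5 CPM (median 49.0) in tdTom− and from 38.1 to 46.6 CPM (median 40.5) in tdTom+ libraries. These ranges overlapped, 7 of 8 mice were lower, and the difference of -0.28 (SE 0.06, adjusted p = 0.0011 by edgeR) was called.

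*Ndufs4*, an accessory subunit of the electron-input arm, lay at -0.35 (SE 0.07, adjusted p = 3.08e-04 by edgeR), and *Ndufb11*, of the membrane arm, at -0.38 (SE 0.07). Both were lower in 8 of 8 mice. In the fit without mouse 3 *Ndufa7* and *Ndufs4* were no longer called, at -0.17 (adjusted p = 0.0443) and -0.24 (adjusted p = 0.0138, edgeR). The median of all genes tested rose as well in that fit, from 0.01 to 0.115, so the shift was not particular to these genes. *Ndufa4* fell by 0.82 (SE 0.08), from 192 ± 14.0 to 108 ± 13.3 CPM. Its paralog *Ndufa4l2*, known as a hypoxia-induced gene, was below the filter with 0 or 1 count per tdTom− and 0 to 3 counts per tdTom+ library.

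Complex II, the only complex with no mitochondrially encoded subunit, had the lowest median of the 5 at -1.02, and all 4 members were lower. *Sdhb*, its iron-sulphur subunit (chromosome 4, 140961203 to 140979193), ranged from 253 to 296 CPM (median 274) in tdTom− and from 98.5 to 141 CPM (median 106) in tdTom+ libraries. The groups did not overlap and the level was 2.45-fold lower (log2 fold change -1.29, SE 0.08, adjusted p = 1.32e-10 by edgeR). *Sdhd* and *Sdhc*, which anchor the enzyme in the membrane, fell by 1.06 (SE 0.08) and 0.91 (SE 0.07). *Sdha*, the flavoprotein that oxidises succinate, fell from 630 ± 38.8 to 318 ± 36.9 CPM, by 0.99 (SE 0.08). The median of complex II was below that of complex I in all 8 mice, with a mean difference of 0.25 ± 0.07 (SD over mice), below those of complexes III and V in all 8, and below that of complex IV in 7 of 8. Without mouse 3 the median of complex II was -0.90 and that of all genes tested was 0.115. Relative to all genes, complex II was then at -1.01, against -1.03 with all mice. These medians describe 4 to 36 genes and were not tested against each other.

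All 9 members of complex III were lower, with a median of -0.86 and a range of -1.14 to -0.69. *Cyc1*, the cytochrome c1 that passes electrons on to cytochrome c (chromosome 15, 76343523 to 76345934), ranged from 353 to 393 CPM (median 366) in tdTom− and from 146 to 208 CPM (median 161) in tdTom+ libraries. It was lower in every mouse, by 1.14 on average (SE 0.08, adjusted p = 6.57e-10 by edgeR). The Rieske iron-sulphur protein *Uqcrfs1* fell by 1.13 (SE 0.07) and the core protein *Uqcrc1* by 1.11 (SE 0.08). The second core protein *Uqcrc2* fell by 0.87 (SE 0.08), and *Uqcrq*, a small subunit, by 0.69 (SE 0.07), from 168 ± 12.0 to 105 ± 11.4 CPM. The other small subunits, *Uqcrh*, *Uqcr11*, *Uqcrb* and *Uqcr10*, lay between -0.86 and -0.73.

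Complex IV had 13 tested members, all lower, with a median of -0.93, and a SD over members of 0.51, against 0.21 in complex I and 0.26 in complex V. This spread rested on *Cox7a1* and *Cox6b2*, without which the SD over the other 11 members was 0.20. *Cox4i1*, the largest nuclear subunit, ranged from 491 to 557 CPM (median 522) in tdTom− and from 229 to 332 CPM (median 262) in tdTom+ libraries, a change of -0.93 (SE 0.08). *Cox5a* fell by 0.86 (SE 0.07) and *Cox5b*, which binds zinc, by 0.97 (SE 0.08). *Cox7b* lay at -1.11 (SE 0.08) and *Cox6c* at -1.06 (SE 0.09), whereas *Cox8a* fell by 0.57 (SE 0.06).

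Several complex IV subunits are encoded by pairs of genes, of which one is widely expressed and the other is known from heart and skeletal muscle, lung or testis. The intestinal epithelium used the widely expressed gene for most of them. The lung-type *Cox4i2* had 2 counts in all 16 libraries, and the testis-type *Cox7b2* and *Cox8c* and the muscle-type *Cox8b* had none, which allows at most 0.118 to 0.175 CPM per library. The muscle-type *Cox6a2* had 3 to 6 counts per tdTom− and 0 to 7 counts per tdTom+ library, next to 295 to 323 and 137 to 209 CPM of *Cox6a1*. These counts are too few for a test.

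**Figure D3:**
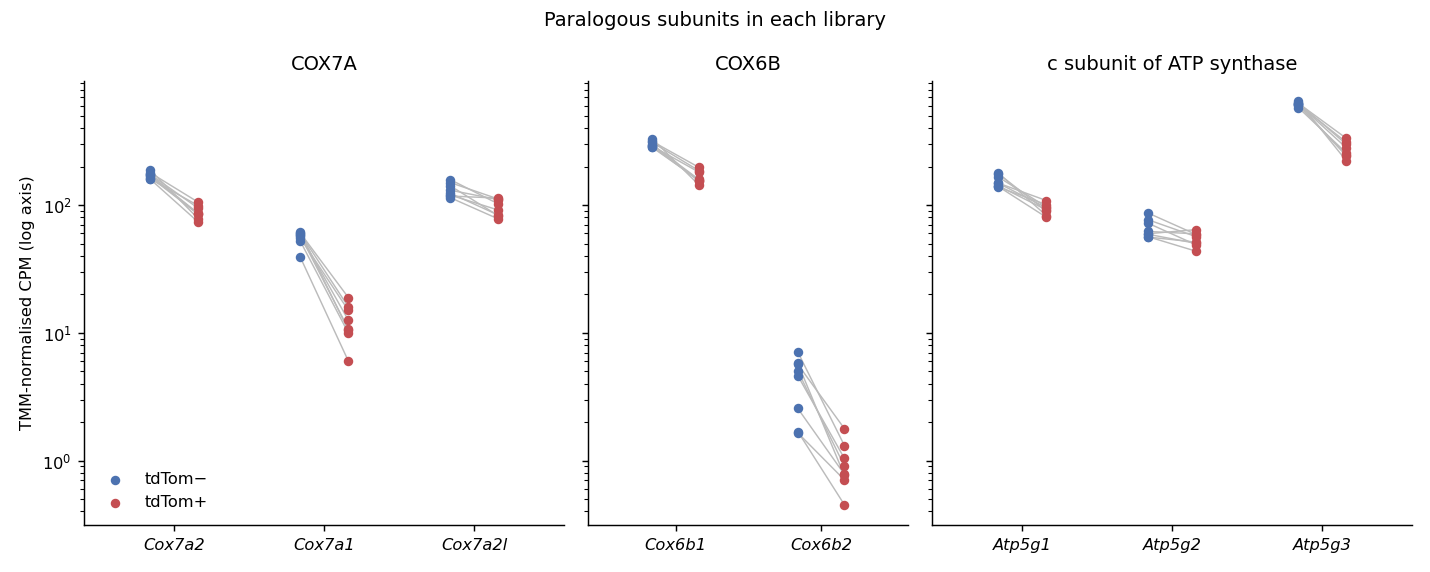
TMM-normalised CPM (log axis) of paralogous subunit genes in each library, blue for tdTom− and red for tdTom+, with grey lines joining the fractions of a mouse. *Cox7a1* and *Cox6b2* drop further than *Cox7a2* and *Cox6b1*, and *Atp5g3* drops further than *Atp5g1* and *Atp5g2*.

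*Cox7a1*, the form of subunit 7a known from heart and skeletal muscle, was an exception (chromosome 7, 30184171 to 30186028). It ranged from 39.0 to 61.3 CPM (median 58.00) in tdTom− and from 6.01 to 18.9 CPM (median 11.6) in tdTom+ libraries. The groups were far apart and the level was 4.44-fold lower in tdTom+ cells (log2 fold change -2.15, SE 0.17, adjusted p = 4.07e-09 by edgeR), the largest decrease of all members. Per kilobase of exon, *Cox7a1* stood at 67.2% of *Cox7a2* in tdTom− and at 29.3% in tdTom+ cells. These shares depend on the annotated exon lengths, 364 bases for *Cox7a1* and 754 for *Cox7a2*. In CPM their means were 55.5 and 171 in tdTom−, and 12.5 and 88.2 in tdTom+ libraries. The lowest *Cox7a1* value in each fraction was that of mouse 7, and without this mouse its log2 fold change was -2.10. Muscle markers were sparse. *Myh1* and *Myh2* had no counts in any library, 1 of the 8 muscle markers, *Acta1*, was abundant enough to be tested (-0.34, adjusted p = 0.0172, and with a replicate block -0.33, adjusted p = 0.00208, both by edgeR), and the summed muscle marker level was 11.6 to 18.7 CPM in tdTom+ and 16.03 to 25.3 CPM in tdTom− libraries. None of the 50-base windows of *Cox7a1* transcripts occurs in transcripts of other annotated genes.

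The form of subunit 6b known from testis, *Cox6b2* (chromosome 7, 4751792 to 4753094), showed the same direction at a much lower level. It ranged from 1.65 to 7.07 CPM (median 4.82) in tdTom− and from 0.45 to 1.78 CPM (median 0.84) in tdTom+ libraries. The ranges overlapped slightly, because mice 7 and 8 had tdTom− values below the tdTom+ value of mouse 5, but each mouse was lower in its tdTom+ library (log2 fold change -2.11, SE 0.33, adjusted p = 1.96e-05 by edgeR). Per kilobase it was 0.64% of *Cox6b1* in tdTom− and 0.26% in tdTom+ cells.

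Isoform ratios within a library do not depend on the scaling between libraries, and 6 of 12 listed pairs had both genes above the filter. The log2 ratio of *Cox7a2* to *Cox7a1* counts was 1.63 ± 0.21 in tdTom− against 2.89 ± 0.41 in tdTom+ (SD, n = 8 each). It differed by 1.25 with no overlap between the groups (exact two-sided permutation p = 1.55e-04, the smallest possible, adjusted p = 1.86e-04 over 6 pairs). Without mouse 7 this difference was 1.19. The ratio of *Cox6b1* to *Cox6b2* was 6.32 ± 0.84 against 7.49 ± 0.51, a difference of 1.17 (exact permutation p = 0.00684, adjusted p = 0.00684) with overlapping groups. Both ratios rose in 8 of 8 mice, so the muscle- and testis-type genes fell more than their widely expressed partners.

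*Cox7a2l*, a paralog of the same family known as a supercomplex assembly factor (chromosome 17, 83501919 to 83514333), moved the other way relative to *Cox7a2*. It ranged from 114 to 158 CPM (median 127) in tdTom− and from 77.8 to 113 CPM (median 96.6) in tdTom+ libraries. The groups did not overlap, but only by a narrow margin, and its fall of 0.45 (SE 0.10, adjusted p = 4.99e-04 by edgeR) was the smallest of complex IV. The log2 ratio of *Cox7a2* to *Cox7a2l* was 0.38 ± 0.14 in tdTom− against -0.12 ± 0.10 in tdTom+, lower by a difference of -0.51 without overlap (exact permutation p = 1.55e-04, adjusted p = 1.86e-04). Without mouse 3 the fall of *Cox7a2l* alone was 0.33 and no longer passed (adjusted p = 0.0124, edgeR). In that fit the median of all genes tested also moved to 0.115. The change in ratio did not depend on any mouse (-0.52 to -0.49).

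Complex V had the highest summed level of the 5, 7196 ± 266 CPM in tdTom− against 3711 ± 436 CPM in tdTom+ (mean ± SD, n = 8 each). Of its 17 members, all tested, 15 were lower and 2 did not pass, with a median of -0.94. The catalytic beta subunit *Atp5b* ranged from 2019 to 2275 CPM (median 2128) in tdTom− and from 947 to 1259 CPM (median 1097) in tdTom+ libraries. The alpha subunit *Atp5a1*, with which it forms the catalytic head, fell from 1759 ± 115 to 906 ± 118 CPM. The log2 fold changes of both head subunits and of the central stalk subunit *Atp5c1* were close to each other, at -0.94 (SE 0.08) for *Atp5b*, -0.96 (SE 0.09) for *Atp5a1* and -0.94 (SE 0.08) for *Atp5c1*. The largest decrease was that of *Atp5o*, which encodes the peripheral stalk protein OSCP, at -1.22 (SE 0.09, adjusted p = 8.49e-10 by edgeR), from 309 ± 13.2 to 132 ± 21.1 CPM. The gene model of *Atp5o* in the files spans chromosome 16, 91684398 to 91931687. In transcripts of other annotated genes 41.6% of its 50-base windows occur, so that its count is uncertain. Windows were matched on both strands, and a read-through model also named *Atp5o* was not set aside from the other genes.

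The c subunit, which forms the rotor ring in the membrane, is encoded by *Atp5g1*, *Atp5g2* and *Atp5g3*, whose mature proteins are known to be identical. *Atp5g3* was the most abundant and ranged from 579 to 650 CPM (median 616) in tdTom− and from 221 to 333 CPM (median 268) in tdTom+ libraries. *Atp5g1* ranged from 138 to 178 CPM (median 148) and from 80.3 to 109 CPM (median 93.5). *Atp5g2* ranged from 56.1 to 86.4 CPM (median 60.9) and from 43.4 to 64.2 CPM (median 53.8), and its groups overlapped. The decreases were 1.17 (SE 0.08) for *Atp5g3* and 0.73 (SE 0.08) for *Atp5g1*. *Atp5g2*, at -0.29 (SE 0.10, adjusted p = 0.0191 by edgeR), did not pass. With the mouse as a replicate block it passed, at -0.28 (adjusted p = 0.00512, edgeR), and likewise without mouse 5, at -0.35 (adjusted p = 0.00942).

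The proportions of the 3 genes changed. The log2 ratio of *Atp5g2* to *Atp5g3* was -3.24 ± 0.24 in tdTom− against -2.33 ± 0.13 in tdTom+, higher by 0.90, and that of *Atp5g1* to *Atp5g3* rose from -2.002 ± 0.151 to -1.54 ± 0.09, by 0.46 (SD, n = 8 each; exact permutation p = 1.55e-04 and adjusted p = 1.86e-04 for both). The ratio of *Atp5g1* to *Atp5g2* fell by 0.44, from 1.24 ± 0.13 to 0.79 ± 0.09, with the same p. In none of the 3 did the groups overlap. Per kilobase, *Atp5g3* was 717% of *Atp5g2* in tdTom− and 388% in tdTom+ cells. *Atp5g2* was 125% of *Atp5g1* per kilobase in tdTom− and 170% in tdTom+ cells, the reverse of their order by CPM. The annotated exon was 4912 bases for *Atp5g1* and 1675 for *Atp5g2*, so this order depends on the gene models. Of the windows of *Atp5g2*, 38.4% are shared with other annotated transcripts, against 11.1% for *Atp5g1* and 0% for *Atp5g3*, so that counts of *Atp5g2* are the least certain of the 3.

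*Atp5s* was the other member that did not pass. It ranged from 4.26 to 6.99 CPM (median 5.39) in tdTom− and from 3.57 to 5.86 CPM (median 4.72) in tdTom+ libraries, a change of -0.25 (SE 0.12, adjusted p = 0.0819 by edgeR). It was lower in 7 of 8 mice. In tdTom− cells its level per kilobase was the lowest of the tested members, whereas in tdTom+ cells *Cox6b2* and *Ndufb2* lay below it.

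Among complexes, the medians followed the same order in most mice. Complex I had the smallest decrease, with a median above those of complexes II, IV and V in all 8 mice and above that of complex III in 7 of 8. Complexes IV and V could not be ranked, as their medians differed by -0.001 ± 0.060 (SD over mice) and each was the lower one in 4 mice. Relative to the median of all genes, the complex medians stayed between -0.82 and -0.74 for complex I and between -1.05 and -0.98 for complex II over the 18 other fits of the data. Complex III ranged from -0.89 to -0.75. With the trend with gene length removed, complexes I and III were close, at -0.74 and -0.75, against -0.79 and -0.87 in the main fit. The spread between mice was shared by the complexes, with mouse 4 having the largest decrease in all 5 (-1.02 to -1.26) and mice 5 and 6 the smallest (-0.55 to -0.91).

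Mitochondrially encoded subunits had a lower median than the nuclear ones. All 13 protein-coding genes of mitochondrial DNA were lower in tdTom+ cells, with a median log2 fold change of -2.27 and a range from -2.58 for *mt-Co1*, the catalytic subunit of complex IV, to -2.05 for *mt-Nd6*, a subunit of complex I. Their share of all counts was 13.96% ± 4.58 in tdTom− against 2.55% ± 0.65 in tdTom+ (SD, n = 8 each). The ratio of their summed counts to those of the 85 nuclear members was 3.46 to 11.4 (median 7.87) in tdTom− and 1.55 to 3.95 (median 3.35) in tdTom+ libraries. The groups overlapped across mice, but within each mouse the ratio was lower in the tdTom+ library, by 1.43 ± 0.21 on the log2 scale (SD over 8 mice, range -1.61 to -1.07). Mice 5 and 6 had the lowest ratios of both fractions. Nuclear copies of mitochondrial genes can take up some of these reads, and the part of RNA quality was not tested.

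**Figure D4:**
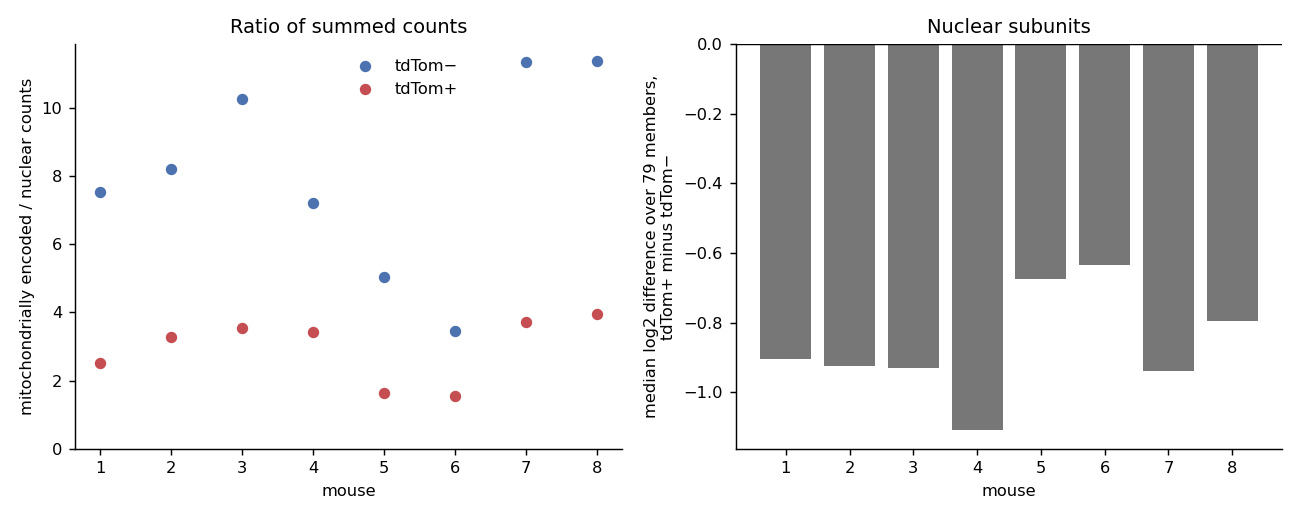
Left, the ratio of summed counts of 13 mitochondrially encoded genes to those of the 85 nuclear members for each mouse, blue for tdTom− and red for tdTom+; right, the median log2 difference (tdTom+ minus tdTom−) over the 79 tested members in each mouse. In every mouse the red point is below the blue one, and mice 5 and 6 have the lowest ratios and the smallest nuclear differences (-0.67 and -0.64).

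Assembly factors help to build the complexes and are not part of them. By the same threshold, 27.0% of all genes tested were lower and 22.7% higher. Of the complex I factors, 8 of 15 were lower and 1 was higher, with a median of -0.28, from *Ndufaf8* at -0.80 to *Tmem186* at 0.27 (SE 0.07). For complex II 3 of 4 were lower (median -0.32, from *Sdhaf4* at -0.45 to *Sdhaf1* at -0.16, not called). For complex III 3 of 6 were lower and 1 higher (median -0.20), from *Ttc19* at -0.54 to *Uqcc3*, which rose by 0.51 (SE 0.08) and was higher in 8 of 8 mice.

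For complex IV 15 of 21 tested factors were lower and none higher (median -0.39). The copper chaperone *Sco2* stood out at -2.28 (SE 0.32), from 16.7 to 3.43 CPM, while *Cox18* was at 0.19 and was not called. The complex V list also holds an inhibitor and *Usmg5*, known as a small subunit of the enzyme. Of its genes 4 of 5 were lower (median -0.75), from the ATP synthase inhibitor *Atpif1* at -1.24 (SE 0.09) to the assembly factor *Tmem70* at -0.18, not called. The difference between subunits and assembly factors was not itself tested.

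**Figure D5:**
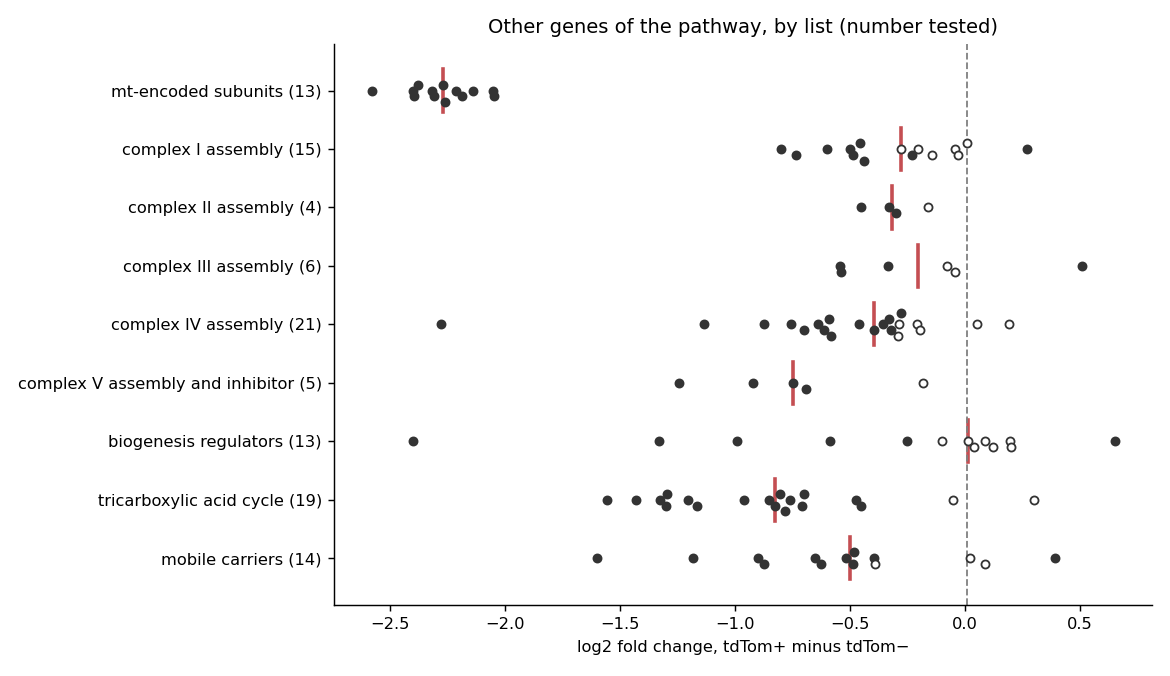
Log2 fold change (tdTom+ minus tdTom−) of tested genes of 9 related lists, with open points for genes that did not pass the adjusted p of 0.01, red lines for list medians and the dashed line for the median of all genes tested. The 13 mitochondrially encoded genes form a group below -2, whereas the biogenesis regulators lie on both sides of the dashed line.

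Metabolic enzymes that feed the chain were mostly lower as well, whereas 27.0% of all genes tested were. In the tricarboxylic acid cycle and pyruvate dehydrogenase list 17 of 19 genes were lower and none higher, with a median of -0.82, and *Dlst*, a subunit of 2-oxoglutarate dehydrogenase, had the largest decrease at -1.56 (SE 0.11). The exception in direction was *Idh2*, the mitochondrial NADP-dependent isocitrate dehydrogenase, at 0.30 (SE 0.13, adjusted p = 0.0562 by edgeR), which passed with the mouse as a replicate block (0.33, adjusted p = 0.00171). Of the 14 genes for cytochrome c and ubiquinone synthesis, 10 were lower and 1 was higher (median -0.50), from *Coq4* at -1.60 (SE 0.09) to *Coq10b* at 0.39 (SE 0.11).

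Of the regulators of mitochondrial biogenesis, 5 of 13 tested were lower and 1 was higher, against 27.0% and 22.7% of all genes tested. Their median was 0.01, the same as that of all genes tested. The coactivator *Ppargc1a* (PGC-1alpha) had the largest decrease of this list, from 59.5 to 11.2 CPM, at -2.40 (SE 0.21, adjusted p = 1.09e-08 by edgeR). The related *Pprc1* rose by 0.65 (SE 0.11). The nuclear receptor *Esrra* (ERRalpha), a partner of PGC-1alpha, fell by 1.33 (SE 0.10), and these genes beyond the extremes of the list are named here after their values were seen. *Nrf1*, a transcription factor known to bind promoters of respiratory genes, was at 0.12 (SE 0.07) and was not called, and *Gabpa*, an ETS factor with the same role, was at -0.25 (SE 0.05) and was lower.

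Promoters were examined for the letters that NRF1, GABP, ERR and YY1 proteins are known to bind, because many members moved together. RefSeq (GRCm38.p6) gave the 250 bases before a start site for 66 of the 85 members. The letters GCGCANGCG (NRF1, where N is any base), read on both strands, occurred in 13 of the 66 (19.7%) and in 5.33% of the 27025 promoters of the whole table. The letters CCGGAAG (ETS factors such as GABP) occurred in 11 members (16.7%) and in 7.05% of all promoters. The ERR letters TCAAGGTCA occurred in 1 member (1.52%) and in 0.366% of all promoters, and the YY1 letters AAGATGGCG in 0 members and in 0.607% of all promoters. With shares this low, 66 promoters are too few for a comparison, and bases after the start site were not searched. None of these motifs contains another. The NRF1 and YY1 letters were shortened by a base after counts for longer forms had been seen. Member promoters had a median GC content of 55.6%, and the whole table one of 52%, and both NRF1 and ETS letters are rich in G and C.

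Stretches of at most 30 bases around such matches are shown for members of each complex that lie upstream of the gene bounds of the files, on the strand of the gene and 5′ to 3′, with the matching letters, or their reverse complement, in capitals. The first 5 hold the NRF1 letters, those of *Ndufs5* and *Ndufa11* in complex I, *Sdhd* in complex II, *Cox6a1* in complex IV and *Atp5h* in complex V. The next 2 hold the ETS letters and the last, of *Atp5g3*, the ERR letters.
Ndufs5 (chr4:123718266-123718294, minus strand): gctgcttgctGCGCAGGCGcagacccgct
Ndufa11 (chr17:56717693-56717721, plus strand): ctgcactgcgCGCATGCGCgcacgccttg
Sdhd (chr9:50603910-50603938, minus strand): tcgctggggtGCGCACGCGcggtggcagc
Cox6a1 (chr5:115349057-115349085, minus strand): cggataaagtGCGCAGGCGctggagttcc
Atp5h (chr11:115420042-115420070, minus strand): gaccccgacgGCGCAGGCGccgcgcccgc
Sdhd (chr9:50603879-50603905, minus strand): cgtctcctgcCTTCCGGttcacgcttc
Uqcr11 (chr10:80406871-80406897, minus strand): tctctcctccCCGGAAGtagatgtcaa
Atp5g3 (chr2:73911360-73911388, minus strand): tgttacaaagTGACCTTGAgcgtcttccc

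Members with and without the NRF1 or ETS letters had close medians, which were not tested against each other. The median log2 fold change was -0.86 for the 13 tested members with the NRF1 letters and -0.84 for the 51 without, and -0.85 for the 11 with the ETS letters and -0.83 for the 53 without. The 4 members with both were *Sdhd* at -1.06, *Atp5h* at -0.94, *Cox6a1* at -0.89 and *Atp5l* at -0.84. *Atp5g3*, the member with the ERR letters, was at -1.17. A match is a description of the letters in this window and does not show that a factor binds there.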

How the data were processed

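RNA of sorted EpCAM+ tdTom+ and EpCAM+ tdTom− cells of 8 mice was sequenced as 50-base single-end reads from TruSeq Stranded mRNA libraries. Per the processing notes, the authors aligned reads with TopHat2 2.1.1 to GRCm38.p3, and the deposited counts are raw read numbers for each Ensembl gene from featureCounts (1.5.0-p1 in the file headers, Subread 1.5.2 in the notes) counting reverse-strand reads at their primary alignment. Reads with several equally good positions thus go to 1 of them, and members with near-identical copies are uncertain. To gauge this, 50-base windows of member transcripts were searched for in transcripts of other genes (GENCODE M21), and 7 members shared over 20%.

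Symbols came from GENCODE M21 for 44671 of 45513 identifiers, and coordinates from the files. Groups came from the group label and mouse numbers from the title. Counts were filtered with filterByExpr of edgeR 4.0.16 (R 4.3.3), scaled with TMM factors and tested with its quasi-likelihood test without a block, adjusted over 15323 genes with a threshold of 0.01. Each standard error is the size of the change over the root of its F value. Levels are TMM-normalised CPM. The fit was also run on simulated counts with few changed genes and no mouse effect. These differ from the present data, so that run does not measure the error rate here. Isoform ratios used counts plus 0.5 and an exact permutation test over 12870 assignments of the 16 libraries, with an adjusted threshold of 0.05. By the series design each mouse gave both fractions, so the title numbers pair the samples. As a check, deviations from the group means correlated at 0.43 on average between libraries of the same number (0.24 to 0.63), and 8 of 8 correlated best with their own number.

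Alternatives were other scalings, DESeq2 1.42.0, limma-voom (limma 3.58.1), other filters, the replicate block, removal of the trend with gene length, other thresholds, and leaving out each mouse. Sequencing batches are not named in the labels, and no within-batch value was made. Named genes were, by rule, the isoform pairs, the core subunits (1 gene that this rule names is not reported here), the extremes of each complex and of all members, and the extremes of each other list. Members, lists and this rule were chosen with earlier results of these data known. Intervals over 8 mice measure the spread between these animals, and the count limit of 3 covers counting error only.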

Additional observations from a re-analysis of the deposited data

Results flagged for a closer look

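In 110 sets of 8 libraries, 4 had a library whose gap to the nearest other exceeded the 95% critical value of Dixon for their range, where chance gives about 1 in 20 sets. Of the 4, 3 concern *Cox7a1* in mouse 7. In tdTom− libraries *Cox7a1* was lowest in mouse 7, at 5.29 log2 CPM against 5.71 to 5.94 in the other mice (gap 0.64 of the range). The log2 ratio of *Cox7a2* to *Cox7a1* was highest in mouse 7 in both fractions, at 2.13 against 1.48 to 1.70 in tdTom− (gap 0.662) and at 3.81 against 2.48 to 3.03 in tdTom+ libraries (gap 0.586). Mouse 7 also had the lowest summed absorptive markers in each fraction, 14550 CPM in tdTom− and 1563 CPM in tdTom+. Its tdTom− library had the highest summed stem cell (2829 CPM) and proliferation (697 CPM) markers and the lowest tuft (21.98 CPM) and enteroendocrine (597 CPM) markers, and its tdTom+ library the highest Paneth (139451 CPM) and lowest goblet (129148 CPM) markers. The part of these cells in the values of *Cox7a1* was not tested. The remaining case was *Uqcrq* in tdTom+ libraries, highest in mouse 5 at 7.03 log2 CPM against 6.55 to 6.77 (gap 0.542).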

How the results depend on the processing

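No named member reversed its direction in any alternative. Of 719 comparisons of 40 named members with an alternative, 711 kept the call. The number of members lower was 74 to 78 in all fits, and 71 of the 72 tested members were lower when the 7 members that share over 20% of their windows were left out, an alternative chosen after seeing the data in place of a search of the genome, which was not run. A limit of 2-fold, a log2 fold change of 1 in either direction, left 14 members, all lower, and 3434 genes differing, 1703 higher and 1731 lower. The median of complex II ranged from -1.04 to -0.90 when each mouse was left out. The median of all genes tested moved from 0.01 to 0.116 with at least 10 counts in every library, where *Ndufa7* and *Cox6b2* lost their calls or could not be tested. Without mouse 3 it moved to 0.115. With the mouse as a replicate block 78 members were lower, and *Atp5g2* (-0.28) was the member whose call changed. Of the 15323 genes tested, 4600 were lower and 3956 higher in that fit. In the other lists the block added the calls of *Idh2*, *Surf1*, *Coq8a*, *Sh2d6*, *Smoc2*, *Cd7*, *Gzma* and *Acta1* and removed that of *Ndufaf3* (adjusted p from 0.00892 to 0.0143 by edgeR), so that 7 of 15 complex I factors, 16 of 21 complex IV factors and 11 of 14 carrier and ubiquinone genes were lower. The main isoform tests did not use the pairing by mouse. Their sign-flip form, with the same block, gave an exact p of 0.00781 for all 6 pairs. That is the smallest p this form can give, so it does not rank the pairs. Depth limits what can be said of the 6 members below the filter.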
